A study of Mus musculus with 6 samples.

Results

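Cytotoxic lymphocytes kill by releasing perforin and granzymes from secretory lysosomes, called cytotoxic granules, at the contact with a target cell. The granule is moved to the contact, docked by the GTPase Rab27a, primed by Munc13-4 (gene Unc13d) and fused with the plasma membrane by syntaxin 11 (Stx11) and its partner Munc18-2 (Stxbp2), with vesicle proteins such as Vamp7 and Vamp8 on the granule side. Lyst controls the size of lysosome-related organelles, Lamp1 (CD107a) is a granule membrane protein that appears on the cell surface after degranulation, and Nkg7 is a membrane protein of cytotoxic granules that takes part in their release. In humans, inherited loss of RAB27A, UNC13D, STX11, STXBP2 or LYST impairs killing by natural killer (NK) cells and T cells.

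These 9 genes (Lamp1, Nkg7, Rab27a, Unc13d, Stx11, Stxbp2, Vamp7, Vamp8 and Lyst) are described here in RNA-seq counts of NK cells sorted from the mouse thymus. They were found by matching the Entrez gene IDs of the deposited count table to mouse symbols. All 9 stood among the 26332 genes of the table, and 8 of them had counts. Cells from 2 Tcf7 knockout (KO) mice were compared with cells from 4 wild-type (WT) mice, all on the C57BL/6 background and each library from 1 mouse. KO 1, WT 1 and WT 3 were labelled male, and KO 2, WT 2 and WT 4 female. The sources used here give neither the ages of the mice nor the construction of the Tcf7 allele. Both groups were sorted by the same gate, which kept NK1.1+ NKp46+ cells without surface CD3, TCRbeta or CD8 and without staining by CD1d tetramer. The product of Tcf7, TCF-1, is a DNA-binding factor needed for the development of T cells and innate lymphocytes, and the series asks what it does in thymic NK cells.

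Total counts were 16418910 and 26245132 in the KO libraries and 16666151 to 31155303 in the WT libraries, so that 3 counts correspond to 0.0963 to 0.183 CPM, the count scaled to library depth. Values below are CPM with scaling by the trimmed mean of M-values (TMM), given in the order KO 1 and KO 2 against WT 1, WT 2, WT 3 and WT 4. Tcf7 itself had 268 and 452 CPM in the KO libraries, against 943, 947, 811 and 880.5 CPM in the WT libraries (log2 fold change -1.35, SE 0.17, adjusted p = 2.94e-03 by edgeR's quasi-likelihood test). Transcript of the targeted gene was therefore still counted in both KO libraries, at a level below all 4 WT libraries. Of the 9 NK cell markers examined, all were counted in every library and 3 were called lower in KO, beside 5.58% of all tested genes. The summed level of the 9 markers was 8729 and 8399 CPM in the KO libraries and 10260 to 11240 CPM in the WT libraries. The 3 were Eomes (log2 fold change -2.11, adjusted p = 1.59e-03 by edgeR), Tyrobp (-0.67, adjusted p = 6.10e-03) and Klrb1c (-0.48, adjusted p = 0.0149). Ncr1 (-0.17, adjusted p = 0.384) and Klrb1c in that list encode NKp46 and NK1.1, the proteins of the gate.

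The promoter sequences of 3 of these genes are shown because the mutated gene encodes a DNA-binding factor. They were picked by what their starts hold and by their fitted values. Nkg7 and Lamp1 had the lowest fitted values of the set, and Vamp8 had one near 0, but none of the 3 was called. The sequences are the 250 bases before the annotated start, 5′ to 3′ on the strand of the gene, from RefSeq on build GRCm38.p6, at chr7:43436888-43437137 (plus strand) for Nkg7, chr8:13158911-13159160 (plus strand) for Lamp1 and chr6:72390668-72390917 (minus strand) for Vamp8. Capitals mark every match, on either strand, to the letters CTTTGA or CTTTGT (TCF/LEF), TGTGGT (RUNX), AGGTGT (T-box), GGAAGT (ETS) or CACGTG (E-box, the same on both strands).
Nkg7: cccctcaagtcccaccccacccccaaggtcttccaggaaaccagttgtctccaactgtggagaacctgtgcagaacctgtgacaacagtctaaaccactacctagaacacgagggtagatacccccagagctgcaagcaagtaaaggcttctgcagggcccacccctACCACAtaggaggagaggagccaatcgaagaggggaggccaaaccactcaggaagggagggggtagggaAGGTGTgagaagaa
Lamp1: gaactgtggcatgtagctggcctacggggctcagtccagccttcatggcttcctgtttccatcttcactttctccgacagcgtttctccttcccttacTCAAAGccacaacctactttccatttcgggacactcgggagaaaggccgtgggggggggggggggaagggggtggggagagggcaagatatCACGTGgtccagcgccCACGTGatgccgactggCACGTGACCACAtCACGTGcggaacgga
Vamp8: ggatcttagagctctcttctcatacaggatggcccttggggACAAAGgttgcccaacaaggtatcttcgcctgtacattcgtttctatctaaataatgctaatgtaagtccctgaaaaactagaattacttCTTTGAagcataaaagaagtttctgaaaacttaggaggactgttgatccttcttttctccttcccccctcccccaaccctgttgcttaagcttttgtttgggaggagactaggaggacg

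Windows of this length were found for 7 of the 9 genes, with 8 starts in all since Rab27a has 2, and not for Unc13d or Vamp7. The TCF/LEF letters stood in 2 of the 8 windows, against 27.6% of 32851 promoter windows of all genes. Vamp8 held CTTTGA 119 bases and CTTTGT 209 bases before the start, and Lamp1 held CTTTGA at 152 bases, while the Nkg7 window held neither. Nkg7 held the RUNX letters at 83 bases and the T-box letters at 14 bases. In the other windows, Rab27a also held RUNX, T-box, ETS and E-box letters, Stxbp2 held 1 E-box, and the windows of Stx11 and Lyst held none of the 6 motifs. Lamp1 held the E-box letters 4 times, and Rab27a and Stxbp2 once each. The E-box letters stood in 6.02% of all windows, the RUNX letters in 14%, the T-box letters in 11.8% and the ETS letters in 19.7%, CTTTGA in 13.8% and CTTTGT in 16.5%. The RUNX match of Lamp1 adjoins an E-box without sharing bases with it. These matches describe letters only, and binding was not measured in these samples.

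No gene of the set passed the test between the genotypes. None of the 8 counted genes was called at an adjusted p under 0.05 (edgeR quasi-likelihood test, Benjamini-Hochberg adjustment over 13652 genes), while 13.7% of all tested genes were called, 8.13% higher and 5.58% lower in KO. Under library-size scaling alone the split of calls over all genes moved to 1336 higher and 523 lower, against 1110 and 762 with TMM. At an unadjusted p under 0.05 there were 2 of the 8, Nkg7 and Lamp1, beside 3998 of all 13652 tested genes. DESeq2 called 1 of the 8, Nkg7, beside 2955 of all genes, and limma voom called 0, beside 2410. The fitted log2 fold changes lay between -0.40 and 0.18, with 6 below 0 and 2 above 0 and a median of -0.08, beside a median of 0.02 over all tested genes. The median absolute log2 fold change was 0.15 for the 8 genes and 0.30 for all tested genes. The SE was 0.10 to 0.13 for the 8 genes, against a median of 0.18 over all tested genes, so these medians do not compare genes of like precision. The 95% intervals of the 8 genes together ran from -0.71 to 0.41, which is 0.611-fold to 1.33-fold of the WT level. Changes beyond these bounds lie outside all 8 intervals. Those of Nkg7 (-0.71 to -0.09) and Lamp1 (-0.55 to -0.01), not adjusted for the number of genes, lay below 0. The intervals of the other counted genes held small changes in either direction.

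**Figure D1:**
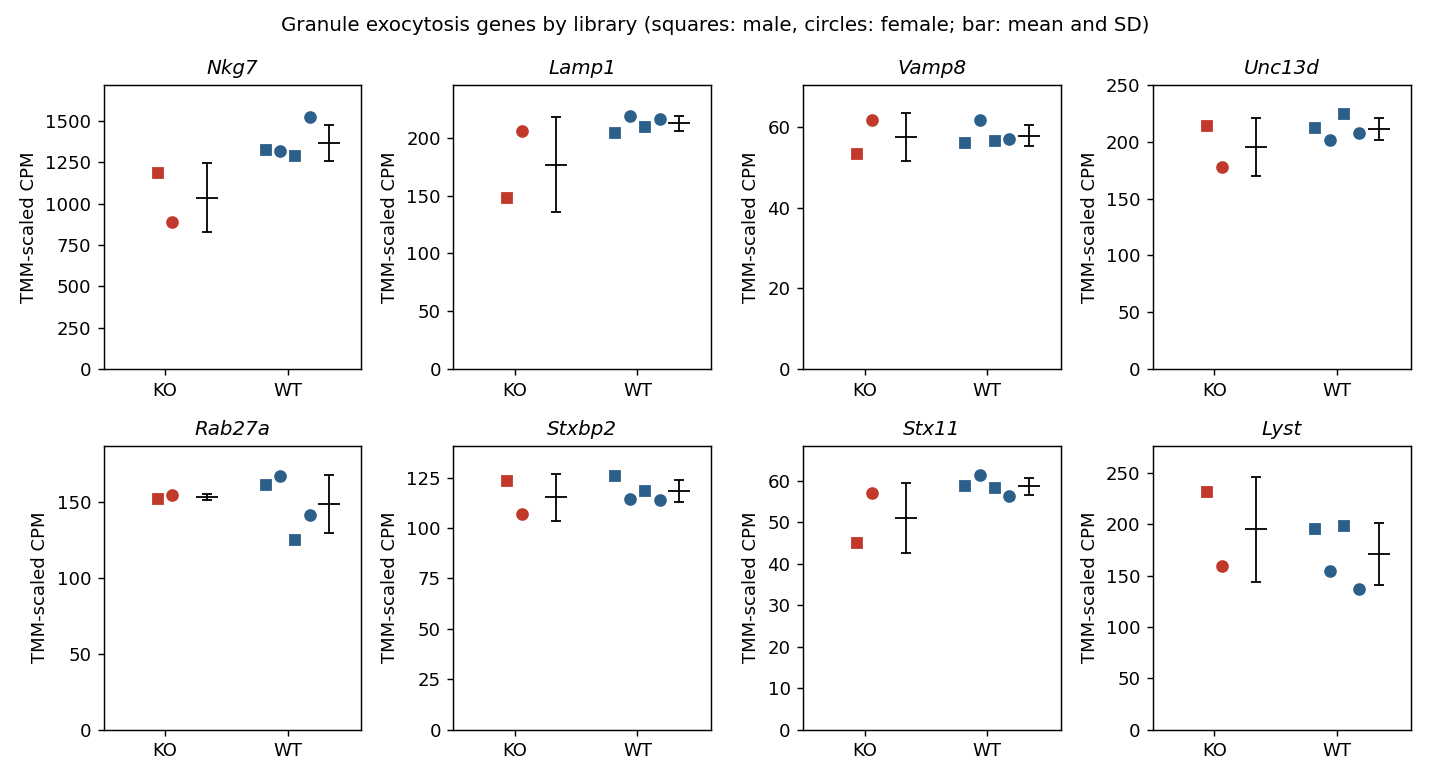
TMM-scaled CPM (vertical axes, from 0) of the 8 counted granule exocytosis genes in each library, KO left and WT right, with squares for males, circles for females, and bars for the mean and SD of 2 KO and 4 WT libraries. Only for Nkg7 do both KO points (1185 and 889.5 CPM) lie below all WT points (1289 to 1528 CPM).

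Rab27a, the GTPase that docks granules at the plasma membrane (Entrez gene 11891, GRCm38.p6 chromosome 9, 73044810 to 73097623), had 151.5 and 154.5 CPM in the KO libraries, against 161, 167, 125 and 141 CPM in the WT libraries. Both KO values lay inside the WT range. Mean Rab27a was 153 ± 2.12 CPM in KO (SD, n = 2) and 148.5 ± 19.2 CPM in WT (SD, n = 4). The log2 fold change was 0.04 (SE 0.13, 95% interval -0.27 to 0.36, adjusted p = 0.863). An annotated pseudogene, Gm27186, shares 149 bases with exons of Rab27a, or 3.84% of them, so part of these reads cannot be assigned with certainty.

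Unc13d encodes Munc13-4, which primes docked granules for fusion (Entrez gene 70450, chromosome 11, 116062095 to 116078495). It had 214 and 178 CPM in the KO libraries, against 212, 202, 225 and 207.5 CPM in the WT libraries. KO 1 lay inside the WT range and KO 2 below it. The log2 fold change was -0.12 (SE 0.10, interval -0.34 to 0.11, adjusted p = 0.473).

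Stx11, the plasma membrane syntaxin of granule fusion (Entrez gene 74732, chromosome 10, 12938217 to 12964498), had 45.0 and 57.0 CPM in the KO libraries, against 58.7, 61.3, 58.3 and 56.4 CPM in the WT libraries. KO 1 was the lowest of the 6 and KO 2 lay inside the WT range. The log2 fold change was -0.21 (SE 0.12, interval -0.49 to 0.07, adjusted p = 0.295). Stxbp2, whose product Munc18-2 binds and stabilises syntaxin 11 (Entrez gene 20911, chromosome 8, 3630960 to 3643998), had 123.5 and 107 CPM in the KO libraries, against 126, 114.5, 119 and 114 CPM in the WT libraries. The groups overlapped, with a log2 fold change of -0.04 (SE 0.10, interval -0.26 to 0.19, adjusted p = 0.836).

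Vamp8, an R-SNARE of endosomal and secretory vesicles (Entrez gene 22320, chromosome 6, 72385221 to 72390667), had 53.4 and 61.8 CPM in the KO libraries, against 56.2, 61.7, 56.7 and 57.1 CPM in the WT libraries. The KO pair spanned the WT values, and the log2 fold change was -0.01 (SE 0.10, interval -0.25 to 0.23, adjusted p = 0.955). Vamp7, the other vesicle SNARE of the set, had 0 counts in all 6 libraries. In the GRCm38 annotation of GENCODE it stands only on GL456233.1, a scaffold outside the assembled chromosomes. All 8 genes of the table annotated only on such scaffolds had 0 counts in all libraries, among them Spry3 and Tmlhe on the same scaffold. Whether these genes are expressed was not tested. The 0 of Vamp7 is therefore not taken as a measurement of expression, and nothing is said of Vamp7 in these cells.

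Lyst, the regulator of lysosome size (Entrez gene 17101, chromosome 13, 13590311 to 13778803), had 231 and 159 CPM in the KO libraries, against 195, 155, 198 and 137 CPM in the WT libraries. The value of KO 1 was the highest of the 6, and KO 2 lay inside the WT range. The log2 fold change was 0.18 (SE 0.10, interval -0.05 to 0.41, adjusted p = 0.279). Lyst had the widest spread between WT libraries of the 8 genes, with a coefficient of variation of 17.6%, against 3.10% for Lamp1 and a median of 12.9% over all tested genes.

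Nkg7 (Entrez gene 72310, chromosome 7, 43437138 to 43438246) was the most abundant of the set per length and had its lowest fitted value. It had 1185 and 889.5 CPM in the KO libraries, against 1325, 1320, 1289 and 1528 CPM in the WT libraries. Both KO libraries lay below all 4 WT libraries, an arrangement shared by 18.8% of all tested genes, while 20.5% had both KO libraries above the WT range. On average this was 1037 ± 209 CPM in KO (SD, n = 2) and 1366 ± 110 CPM in WT (SD, n = 4). The fitted log2 fold change was -0.40 (SE 0.13, interval -0.71 to -0.09, adjusted p = 0.0883). Leaving out KO 1 gave -0.69 (adjusted p = 0.0214) and leaving out KO 2 gave -0.15 (adjusted p = 0.455), so the call depends on which KO mouse is kept. The NK marker list had 3 of 9 genes lower in the same libraries, at the summed levels given above, and its part in the Nkg7 value was not tested. In such bulk samples, fewer cells of a type and less RNA per cell cannot be told apart.

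Lamp1, the lysosomal membrane protein used to detect degranulation (Entrez gene 16783, chromosome 8, 13159161 to 13175338), had 148 and 206 CPM in the KO libraries, against 205, 219.5, 210.0 and 216.5 CPM in the WT libraries. KO 1 lay well below the narrow WT range and KO 2 just inside it. The log2 fold change was -0.28 (SE 0.12, interval -0.55 to -0.01, adjusted p = 0.162), at -0.09 without KO 1 and -0.49 without KO 2. Exons of Grtp1, on the other strand, overlap 249 bases of Lamp1 exons. The library kit does not mark strand, but Grtp1 itself was counted at no more than 0.522 CPM in any library.

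**Figure D2:**
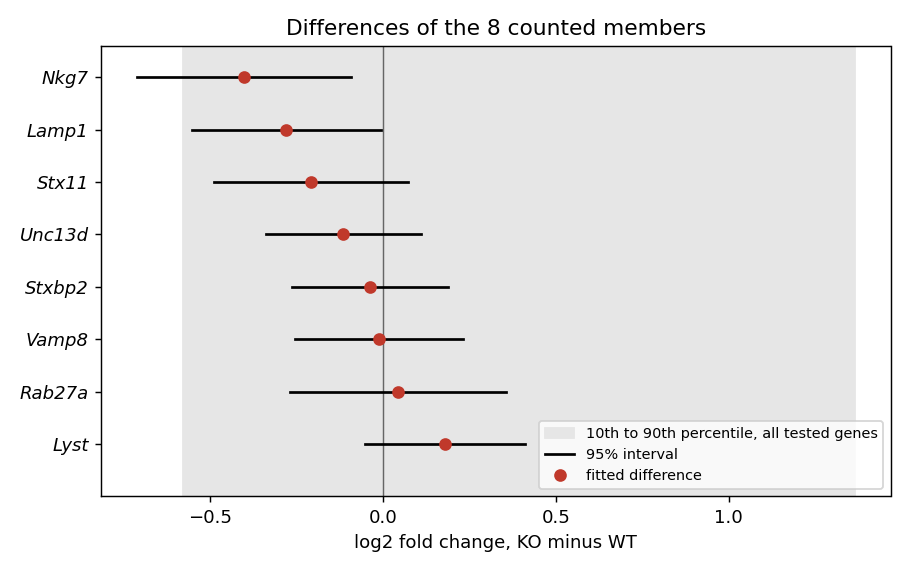
Fitted log2 fold change, KO minus WT (horizontal axis), of the 8 counted genes with 95% intervals. The grey band marks the 10th to 90th percentile of all 13652 tested genes (-0.58 to 1.36), and all 8 fitted values lie inside it.

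Per length, the set spanned a wide range. Levels between genes are compared here in RPKM, the TMM-scaled CPM divided by the gene length of the deposited table in kilobases. Mean RPKM was 1276 in KO and 1680 in WT for Nkg7, 78.4 and 94.3 for Lamp1, and 73.2 and 73.7 for Vamp8. It was 49.4 and 53.3 for Unc13d, 51.5 and 50.0 for Rab27a, and 42.7 and 43.7 for Stxbp2. Stx11 had 21.3 and 24.5 RPKM, and Lyst, the longest gene of the set, 16.5 and 14.5 RPKM. The WT ranges of Unc13d and Rab27a overlapped, as did those of Rab27a and Stxbp2, so these neighbours are not separated in the order. The other neighbours did not overlap between the WT libraries. In WT, the 8 genes stood between the 60.2th and the 99.9th percentile of the RPKM of all tested genes. Nkg7 made up 81.9% and 76.1% of the summed RPKM of the set in KO 1 and KO 2, against 81.7% to 84.5% in the WT libraries.

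Most of these genes belong to families, and in these cells the listed gene was often not the only member counted. Rab27b, the close relative of Rab27a, fell in KO. It had 8.06 and 4.87 CPM in the KO libraries, against 22.99, 20.04, 26.87 and 24.38 CPM in the WT libraries. Every KO value was below every WT value, with a log2 fold change of -1.90 (SE 0.22, interval -2.41 to -1.40, adjusted p = 2.03e-03), and the call held in all 17 alternatives. Per length, Rab27a exceeded Rab27b 45.1-fold and 76.1-fold in the KO libraries, against 16.8-fold, 19.9-fold, 11.1-fold and 13.9-fold in the WT libraries. The ratio itself was not tested, and Rab27a was not called.

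Among the relatives of Unc13d, the neuronal genes Unc13a, Unc13b and Unc13c had mean levels at or under 0.0905 RPKM in both groups, while Baiap3, a Munc13 family gene, had 22.4 RPKM in KO and 25.7 RPKM in WT (adjusted p = 0.406). Stxbp3 had 17.6 RPKM in KO and 15.5 RPKM in WT beside the higher Stxbp2. Among syntaxins, Stx4a (46.5 RPKM in KO, 43.9 in WT), Stx5a (30.7 and 35.3), Stx6 (27.8 and 26.8) and Stx7 (27.0 and 27.1) had higher mean levels than Stx11. Vamp8 stood above the other R-SNARE genes counted, of which Ykt6 (45.1 RPKM in KO, 47.6 in WT), Sec22b (36.3 and 37.5) and Vamp2 (28.6 and 27.7) followed. Lamp1 exceeded Lamp2 2.83-fold and 3.59-fold per length in the KO libraries, against 4.44-fold, 4.79-fold, 5.19-fold and 5.25-fold in the WT libraries. Neither Lamp gene was called by edgeR, and this ratio was not tested either. Lamp2, with a log2 fold change of 0.34 (adjusted p = 0.0900), was called higher by DESeq2 (adjusted p = 0.0324) and with library-size scaling (0.0426). Of the BEACH domain genes related to Lyst, Nbeal2 (81.0 RPKM in KO, 73.5 in WT) and Nsmaf (75.3 and 61.5) stood above Lyst.

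**Figure D3:**
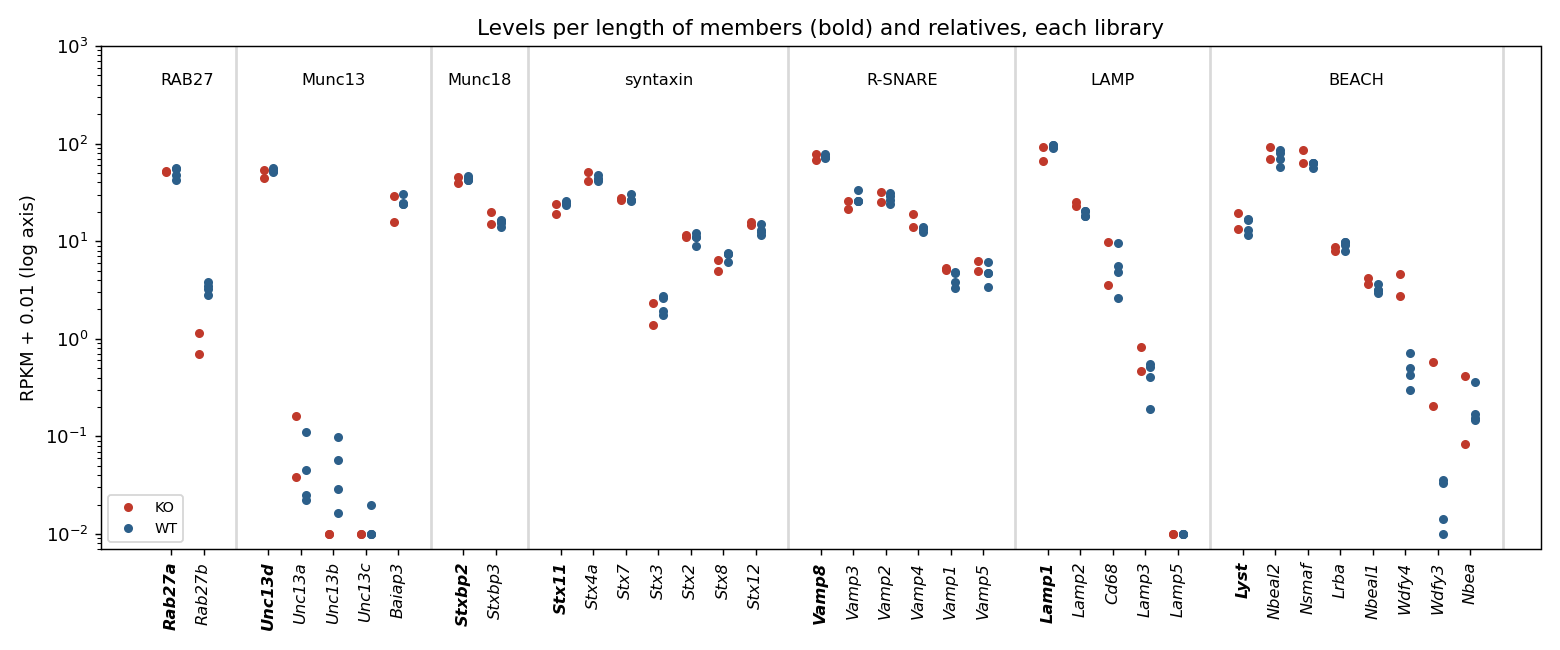
RPKM + 0.01 on a log axis for the listed genes (bold) and relatives of the same protein families, 1 point per library, KO left of WT for each gene. Rab27b (0.683 to 1.13 RPKM in KO, 2.82 to 3.77 RPKM in WT) is separated between the groups beside an overlapping Rab27a. Vamp7 is not plotted because its 0 counts are not taken as a measurement.

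Other genes of granule biogenesis, transport, fusion and content were examined as 12 lists. Of 156 such genes in the table, 135 were tested and 16 were called by edgeR, 8 higher and 8 lower. That share, 11.9%, lies near the 13.7% of all tested genes and is no result about these lists. DESeq2 called 33 of the 135 (2955 of all 13652 genes) and limma voom 24 (2410 of all genes), and calls in the lists below are those of edgeR unless another tool is named.

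In 4 lists edgeR called no gene. These were the syntaxins and other Q-SNAREs (0 of 17, median log2 fold change -0.03), the other R-SNAREs (0 of 7, median 0.04), the genes of SNARE disassembly (0 of 4, median -0.09) and the AP-3, BLOC, HPS and Vps33 genes of lysosome-related organelle biogenesis (0 of 21, median -0.17). At an unadjusted p under 0.05 there were 1, 0, 0 and 4 genes in these lists, beside 3998 of all 13652 tested genes. Limma voom called none of their genes, and DESeq2 called 1, Rab32, a GTPase of lysosome-related organelles (log2 fold change -0.70, adjusted p = 0.0402 by DESeq2, and -0.71 with 0.0785 by edgeR). The gene named from each list is the one with the highest mean CPM over the 6 libraries, a scale that also grows with gene length. Snap23, a partner SNARE of plasma membrane syntaxins, had 64.0 and 93.0 CPM in the KO libraries and 76.5 to 92.3 CPM in the WT libraries. Ykt6, an R-SNARE of several transport steps, had 109 and 114 CPM in the KO libraries and 115 to 121 CPM in the WT libraries. Napa, the alpha-SNAP that recycles SNARE complexes, had 94.5 and 83.5 CPM against 83.1 to 106 CPM. Ap3d1, the delta subunit of the AP-3 sorting adaptor, had 161.5 and 154 CPM against 160.5 to 192 CPM. Per length, Vti1b (53.2 RPKM in KO, 56.6 in WT) stood above Snap23 (35.3 and 39.2), and Bloc1s1 (54.9 and 60.8) above Ap3d1 (33.3 and 37.5).

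Among the 19 tested Rab27 partners, effectors and tethers, 2 fell and none rose. Beside Rab27b this was Exoc7, a subunit of the exocyst tether, with 54.4 and 59.7 CPM in the KO libraries against 73.3 to 82.8 CPM in the WT libraries (log2 fold change -0.42, adjusted p = 0.0488). The call of Exoc7 was lost in 9 of 17 alternatives, including the omission of any 1 library (adjusted p up to 0.273). The synaptotagmin-like effectors Sytl2 (log2 fold change 0.45, adjusted p = 0.0736) and Sytl3 (-0.40, adjusted p = 0.0529) were not called by edgeR. Sytl2 was called in 3 of 17 alternatives, including DESeq2 (adjusted p = 0.0186), and Sytl3 in 4, including DESeq2 (0.00854) and limma voom (0.0419). Of 7 Munc13 and Munc18 relatives tested, Cadps2, a priming factor of dense-core vesicles, was called lower. It had 0 counts in both KO libraries against 13 to 32 counts in the WT libraries, or 0.429 to 1.38 CPM. Against the floor of 3 counts per library this is at least 6.02-fold lower in KO, and the call was lost in 7 of 16 alternatives, among them the omission of WT 1, WT 3, WT 4, KO 1 or KO 2 (adjusted p up to 0.111).

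Of 9 other LAMP family and lysosomal membrane genes, 1 rose. Cd63, a tetraspanin of late endosomes and secretory granules, had 4.69 and 17.6 CPM in the KO libraries against 0.121 to 0.606 CPM in the WT libraries (log2 fold change 5.24, SE 0.58, adjusted p = 1.81e-03). Without KO 2 it was not called (adjusted p = 0.0636). Of 7 BEACH domain genes, 2 rose. Wdfy4, which acts in antigen presentation by dendritic cells, had 26.2 and 44.1 CPM in the KO libraries against 2.79 to 6.82 CPM in the WT libraries (2.92, SE 0.28, adjusted p = 1.02e-03), with the call held in all 17 alternatives. Wdfy3, a scaffold of selective autophagy, had 2.78 and 8.06 CPM in the KO libraries and at most 0.363 CPM in the WT libraries (5.17, adjusted p = 4.40e-03), and was not called without KO 2 (adjusted p = 0.0598).

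Genes of granule movement and the synapse cytoskeleton mostly stayed uncalled, with 1 higher and 2 lower of 19. Myo5a, a myosin that carries melanosomes with Rab27a in mouse pigment cells, rose to 60.9 and 52.4 CPM in the KO libraries, against 10.6 to 15.6 CPM in the WT libraries (log2 fold change 2.02, SE 0.16, adjusted p = 5.26e-04). Wipf1, the partner of the actin regulator WASP, had 539 and 508 CPM against 654 to 764 CPM (-0.45, adjusted p = 0.0288). Itgal, the alpha chain of the adhesion receptor LFA-1, had 1754 and 1778 CPM against 2213 to 2359 CPM (-0.39, adjusted p = 0.0120). The call of Wipf1 was lost when WT 1, WT 2, KO 1 or KO 2 was left out (adjusted p up to 0.150), and that of Itgal when WT 1 or KO 2 was (up to 0.0542).

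Of 11 genes of the calcium trigger, 1 rose and 2 fell. Plcg1, the phospholipase used below the T cell receptor, had 41.0 and 44.6 CPM in the KO libraries against 4.92 to 13.3 CPM in the WT libraries (2.34, SE 0.24, adjusted p = 1.41e-03). Plcg2, its counterpart in NK and B cells, was not called (-0.11, adjusted p = 0.517). Syt11, a synaptotagmin that does not sense calcium, had 18.9 and 15.3 CPM against 25.6 to 40.4 CPM (-0.98, adjusted p = 0.0233). Orai2, a calcium channel subunit, had 80.3 and 83.5 CPM against 109.8 to 118 CPM (-0.47, adjusted p = 0.0215). Leaving out WT 1, WT 3, KO 1 or KO 2 ended the call of both, and leaving out WT 2 also that of Orai2 (adjusted p up to 0.136 and 0.112).

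Tfeb, a transcription factor of lysosomal genes, was called lower among 3 tested MiT/TFE factors, with 50.8 and 40.6 CPM in the KO libraries against 69.7 to 78.4 CPM in the WT libraries (-0.70, SE 0.13, adjusted p = 0.0119). Without KO 2 it was not called (adjusted p = 0.0880). Among 11 tested genes of granule contents, 3 rose. Granzyme B (Gzmb) had 2022 and 1543 CPM in the KO libraries against 462 to 559 CPM in the WT libraries. Gzmk had 54.0 and 16.5 CPM against 11.01 to 15.83 CPM, and Gzmd had 0.580 and 3.94 CPM against 0 CPM in 3 of 4 WT libraries and 0.162 CPM in the other. Omission of WT 1, WT 3 or KO 1 ended the calls of both Gzmk and Gzmd, and omission of WT 2 also that of Gzmk (adjusted p up to 0.419 for Gzmk and 0.115 for Gzmd). The granzyme genes Gzma, Gzmc and Gzme had fitted values above 0 and were not called (adjusted p = 0.120, 0.101 and 0.0976 by edgeR). Gzmm went the other way, with a log2 fold change of -1.12 (adjusted p = 0.0637 by edgeR), and was called lower by DESeq2. Perforin (Prf1) had a log2 fold change of -0.43 and just missed the threshold (adjusted p = 0.0525 by edgeR). It was called lower in 7 of 17 alternatives, among them DESeq2 (adjusted p = 0.00743) and limma voom (0.0340).

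**Figure D4:**
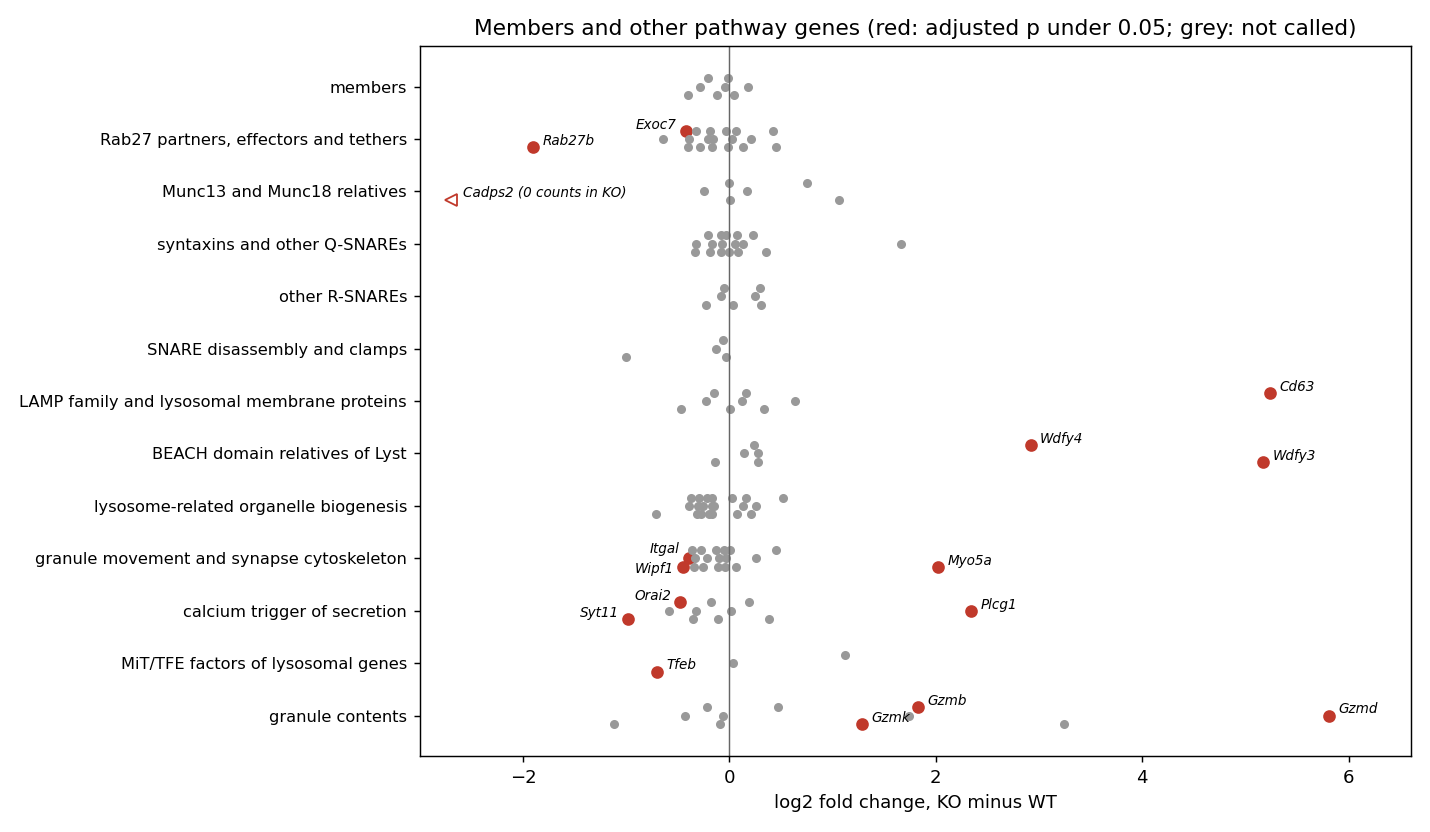
Log2 fold change, KO minus WT (horizontal axis), of the listed genes and of 12 other lists of the granule pathway, 1 point per tested gene, red where the adjusted p is under 0.05. The listed genes and both SNARE lists hold no red point. The open triangle marks Cadps2, which had 0 counts in KO and whose fitted value is not a size.

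The KO libraries also held higher levels of markers of other cell types, beside the rises of Cd63, Wdfy3, Wdfy4, Myo5a, Plcg1, Gzmb, Gzmk and Gzmd. Over all tested genes, 8.13% were called higher and 5.58% lower in KO. The counts of calls below come from short lists and were not tested against those shares. Of 10 alpha-beta T cell markers 4 rose, with summed levels of 1586 and 2081 CPM in the KO libraries against 321.9 to 494 CPM in the WT libraries. Of 8 dendritic cell markers 4 rose (1347 and 1124 CPM in KO, 893 to 986 CPM in WT), and of 7 B cell markers 6 rose (555 and 417 CPM in KO, 375 to 424 CPM in WT). Of 5 gamma-delta T cell markers 3 rose (570 and 393 CPM in KO, 168 to 298 CPM in WT), and of 5 tested stromal markers 4 rose (270 and 447.5 CPM in KO, 108.5 to 119 CPM in WT). Single genes made the largest part of the dendritic cell, B cell and stromal sums, which do not measure amounts of cells. Itgax had 829 and 524 CPM in KO and 813.5 to 887 CPM in WT, and Ighm 357 and 364.5 CPM against 359 to 406 CPM, neither called. Pecam1, called higher, had 245 and 402 CPM in KO and 103 to 113 CPM in WT. Of 7 tested monocyte and macrophage markers 1 rose (66.7 and 165 CPM in KO, 0.769 to 70.7 CPM in WT), and of 7 tested neutrophil markers 2 rose (155 and 178 CPM in KO, 0.0659 to 40.8 CPM in WT). WT 4 made the upper end of both WT ranges, and its monocyte sum was above that of KO 1. In WT 1, WT 2 and WT 3 the monocyte sums were 0.769, 3.63 and 12.6 CPM, and the neutrophil sums 0.162, 0.0659 and 0.180 CPM. In these lists, the neutrophil granule genes Elane (6.20 and 24.7 CPM in KO, 0 CPM in WT) and Mpo (10.9 and 75.2 CPM in KO, at most 0.565 CPM in WT) rose. The myeloid gene Lyz2 had 36.4 and 70.3 CPM in KO and 0.0405 to 14.7 CPM in WT (adjusted p = 0.105), while Cd14 and Ly6g were at 0 CPM in KO 1 and at 0.891 and 0.446 CPM in KO 2. Of 2 tested mast cell and basophil markers 1 fell, Cma1 (50.7 and 50.2 CPM in KO, 59.8 to 78.2 CPM in WT), which made up most of the list's sum (52.6 and 73.3 CPM in KO, 61.1 to 80.02 CPM in WT). The rest of that list stood higher in KO 2, with Cpa3 at 12.4 CPM, Mcpt4 at 5.20 CPM and Mcpt8 at 4.12 CPM, against 1.91, 0 and 0 CPM in KO 1 and at most 1.86, 0 and 0.06 CPM in WT, and Tpsab1 was at 0 in all libraries. Of 3 tested erythroid and platelet markers none was called (1.28 and 23.7 CPM in KO, 13.4 to 42.3 CPM in WT). The part of these cell types in the values of the granule genes was not tested.

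Of 9 early response genes, which cell handling can induce, 1 fell, beside 5.58% of all tested genes. The 9 genes summed to 445 and 576 CPM in the KO libraries. In the WT libraries their sum was 839 CPM for WT 1, 791 for WT 2, 3455 for WT 3 and 6358 for WT 4. With WT 3 and WT 4 left out together, none of the 8 genes was called and Nkg7 had a log2 fold change of -0.36 (adjusted p = 0.111).

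Sex as labelled was tested in the same fit. The labels were not checked against genes that mark sex, so an absence of calls does not show that the sexes are alike. Female and male below are the labels only. No tested gene was called between female and male libraries (0% of 13652, with 866 at an unadjusted p under 0.05). Any tested gene that marks sex was thus not called either, and whether the labels are right was not tested. The lowest adjusted p was 0.118 over all tested genes and 0.760 among the 8 genes. The lowest of the 8 was Lyst, with 159 CPM in the female KO library and 155 and 137 CPM in the female WT libraries, against 231 CPM in the male KO library and 195 and 198 CPM in the male WT libraries. The 3 female values were below the 3 male values (log2 fold change -0.47, female minus male, SE 0.09), a difference that did not pass the adjustment. Lyst was picked here as the lowest of the 8, and the share of all tested genes with the sexes so separated was not counted. The genotype by sex interaction also called no gene (0% by edgeR, 1368 at an unadjusted p under 0.05, and 0 by limma voom), with 1 KO library per sex. For Nkg7 the log2 ratio of KO to the WT mean was -0.68 in females and -0.14 in males (interaction -0.54, adjusted p = 0.439), and for Lamp1 it was -0.08 in females and -0.49 in males (interaction 0.41, adjusted p = 0.506). The 2 genes nearest to a call thus had their lower KO value in different mice.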

How the data were processed

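Thymic NK cells of 2 Tcf7 KO and 4 WT mice were profiled by RNA-seq. Per the labels' protocols, the authors made unstranded libraries with SMART-Seq v4, a kit for small amounts of RNA, and sequenced both read ends. The deposited table holds raw, whole-number counts for each Entrez gene. The submitters' processing notes name featureCounts and the build mm10, whereas no aligner is given in the sources used here. Amplified cDNA without molecular identifiers was counted, so the floor of 3 counts covers counting error only.

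Symbols and positions came from a RefSeq table of GRCm38.p6 (the assembly also called mm10), which matched 25275 of 26332 IDs. The 1057 unmatched IDs, with 0.623% of all counts, were tested as well. Overlaps and scaffold positions came from GENCODE M21, also on GRCm38. Gene lengths for RPKM were those of the deposited table. Any 2 replicates of a group disagreed beyond sampling noise (chi-square over genes with at least 10 counts, divided by its degrees of freedom, at least 8.86), and each library counted as 1 replicate.

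KO was compared with WT over all 6 libraries with edgeR 4.0.16 in R 4.3.3 (TMM, filterByExpr, glmQLFit, glmQLFTest), with labelled sex as a covariate. Calls were made at a Benjamini-Hochberg adjusted p under 0.05 among 13652 tested genes. Residual and prior degrees of freedom were 3 and 4.50, and the common biological coefficient of variation was 0.239. Standard errors and intervals follow from the quasi-likelihood F statistic. Sex was tested in that fit, and the interaction by adding the product of genotype and sex. Alternatives changed the scaling (RLE, upper quartile, library size), the filter (none, or 5 CPM in 2 libraries or more), the model (without sex, or with the replicate number as a block) and the tool (DESeq2 1.42.0, voom from limma 3.58.1, the robust option of edgeR). Others left out each library in turn, or WT 3 and WT 4 together. The steps were tested on simulated counts.

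The members, the 12 other lists and the marker lists were chosen with earlier results of these data known. All members and Tcf7 were named. In each other list, up to 3 called genes with the largest change were named, and the most abundant one where none was called. Relatives of the same families were also named with their levels, and some listed genes are not reported here. The marker genes, and among the other lists Sytl2, Sytl3, Plcg2, Prf1, Gzma, Gzmc, Gzme, Gzmm, Rab32, Vti1b and Bloc1s1, were named after their values were seen.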

Additional observations from a re-analysis of the deposited data

Results flagged for a closer look

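Among 30 named genes, 4 had a WT library far from the other 3, as judged by the gap to its nearest neighbour over the whole range. Chance marks about 1 in 20 such groups. Nkg7 had 1528 CPM in WT 4, where the others had 1289 to 1325 CPM, and without WT 4 its log2 fold change was -0.32 (adjusted p = 0.109). Vamp8 had 61.7 CPM in WT 2, where the others had 56.2 to 57.1 CPM. Cadps2 had 0.429 CPM in WT 2, where the others had 1.29 to 1.38 CPM. Gzmd had 0.162 CPM in WT 4, where the others had 0 CPM.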

How the results depend on the processing

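Each of the 8 counted genes was refitted under 17 alternatives, and 1 of them, Nkg7, was called in any. The number called lower was 1 instead of 0 with no expression filter (Nkg7 log2 fold change -0.41, adjusted p = 0.0272) and by DESeq2 (-0.40, adjusted p = 0.0291), and 0 to 1 when 1 library was left out. The number called higher was 0 throughout. Over all alternatives Nkg7 ran from -0.69 to -0.15 (adjusted p 0.0214 to 0.455). The number of genes called over the whole table was 2955 by DESeq2 against 1872, and 934 to 1908 when 1 library was left out (1002 without WT 1, 1022 without WT 3, 1015 without KO 1). Of the 135 genes of the other lists, 33 were called by DESeq2 and 24 by limma voom, against 16. The number called between the sexes was 0 to 4 when 1 library was left out, with 4 without WT 2 and 1 without WT 4. The fitted values of 3 genes near 0 changed sign, none with a call. Rab27a was -0.0992 with the replicate block, -0.0974 without WT 3 and WT 4 together, and -0.0367 to 0.12 when 1 library was left out. Stxbp2 was 0.0455 with library-size scaling and -0.0990 to 0.0105 when 1 library was left out. Vamp8 was 0.0030 with upper-quartile scaling, 0.0716 with library-size scaling, 0.0180 with the 5 CPM filter, and -0.0857 to 0.0482 when 1 library was left out. The cause of these shifts was not tested. With the replicate number as a block, 1341 genes were called and 0 of the 8. Libraries with the same number deviated together with a correlation of 0.13 for number 1 and 0.0005 for number 2, and nothing in the labels pairs them. Pairs of unlike number had correlations from -0.17 (KO 1 with WT 4) to 0.17 (KO 2 with WT 4). With 2 KO libraries, the values of KO 1 and KO 2 mirror each other. The depth was 776 to 40055 counts per library for the 8 genes.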
